A study of Oryza sativa with 4 samples.

Results

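Nucleosomes wrap the DNA of chromatin, and a nucleosome is well positioned where it sits on nearly the same base pairs in most cells of a tissue. In MNase-seq, linker DNA is digested by micrococcal nuclease and the protected fragments are sequenced, so that such a nucleosome appears as fragments stacked at one place and a fuzzy one as fragments scattered around a centre. Well-positioned nucleosomes are known for ordering their neighbours into arrays of regular spacing, and histone chaperones such as OsChz1, which binds dimers of H2A or H2A.Z with H2B, take part in building and exchanging nucleosomes.

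The best-positioned nucleosomes of wild-type (WT) rice were analysed here, 69708 of the 1690300 nucleosomes that the map listed. They are the nucleosomes of the 12 nuclear chromosomes that had a summit (the position of highest occupancy) in WT, a WT summit value of at least 10 and a WT fuzziness score in the lowest 5% of such nucleosomes. They were thus selected on the WT summit value and the WT fuzziness score. Fuzziness measures how widely the fragments of a nucleosome scatter, and a low score stands for a sharp position. In all, 1394158 nucleosomes were eligible, and the minimum value removed 1273 summits. The remaining 1324450 eligible nucleosomes serve for comparison and are called the other nucleosomes.

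Chromatin was prepared from 30-day-old seedlings of WT (labelled NIP) and of *oschz1-1*, a CRISPR/Cas9 knockout of *OsChz1* that the labels give as oschz1 and that is represented by a single mutant line. Both genotypes had grown in long days (14 h light, 30 °C; 10 h dark, 28 °C), and 2 libraries were made from each. The authors had merged these, so that 1 value per genotype and nucleosome was analysed. No difference between the genotypes could therefore be set against the spread between replicates, the read depth is unknown, and all comparisons below are descriptions without a test across samples. Nucleosomes of one map are not replicates of a genotype, and the spread given is that over the 12 chromosomes. Seedlings hold many cell types, and a nucleosome that is well positioned in a part of the cells cannot be told apart from one that is moderately positioned in all of them.

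Because the members were chosen for a low score in WT, their score in another map can be higher by the choice alone, to an extent that these data do not give. The same rule was therefore applied to the *oschz1-1* map, in which 70396 of 1407915 eligible nucleosomes were selected, and this mirror selection was read in WT. Its values are given beside those of the members for a part of the results. None are given for the shares by distance, the densities of summits, the runs, the windows of 100000 bp and the adjacent pairs.

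The WT fuzziness scores of the members ran from 27.4 to 41.97, with a median of 39.0, against a median of 53.6 in the other nucleosomes. These scores chose the members and are given as a description. The WT summit value, an occupancy signal scaled by the authors, had a median of 20.5 in the members (quartiles 15.2 and 27.5, highest 63.8) and of 16.4 in the other nucleosomes. Of the members, 31.6% fell into the highest decile of WT summit values. The 5% of eligible nucleosomes with the highest value held 22.3% of the members, so that most members were not among the nucleosomes of highest occupancy. The members were spread over all chromosomes, with 4142 to 8190 on each. They made up 4.66% of the eligible nucleosomes on chromosome 11 and 5.26% on chromosome 8, the lowest and the highest of the 12 shares.

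The 6 members of lowest WT fuzziness are described one by one, as extreme cases and not as typical members. The lowest score, 27.4, was also the lowest of the mirror selection. Whether it is a floor of the score was not tested. Of 2 that shared the lowest score, one lay on chromosome 11 at 12039556 (MSU7 coordinates, as for all positions here), with a WT value of 15.6, an *oschz1-1* value of 7.42 and a fuzziness of 27.4 in both maps. Its nearest WT summit was 5985 bp away, and no summit was listed for *oschz1-1*. The other, on chromosome 6 at 22618036, had a WT value of 12.3, an *oschz1-1* value of 0 and no *oschz1-1* summit, the nearest one being 290 bp away. Both of these lost members stood alone in WT, without a neighbour in the range of an array.

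The other 4 kept a summit in *oschz1-1* and were also among the best-positioned nucleosomes there. On chromosome 5 the summit at 15760844 lay on the identical base in both maps, with values of 26.9 in WT and 23.1 in *oschz1-1*, fuzziness of 27.5 and 27.6, and WT neighbours 152 and 163 bp away. The summit at 13714434 on chromosome 11 had moved by 3 bp to 13714431, and its value was 19.4 in WT and 12.2 in *oschz1-1*. That at 13806768 on chromosome 7 had moved by 10 bp, with values of 10.6 and 10.9, and that at 4470804 on chromosome 10 had not moved, with values of 10.6 and 12.2. These 4 therefore held their place within 10 bp, although 2 of them had values close to the minimum of 10. At the other end of the members, those just inside the threshold lay on chromosome 5 at 14163291, chromosome 12 at 1628976 and chromosome 11 at 2814941, each with a WT fuzziness of 41.97. Their *oschz1-1* scores were 52.9, 40.4 and 32.3. Just outside it were summits on chromosome 2 at 18109611, chromosome 1 at 16868886 and chromosome 2 at 1440841, whose *oschz1-1* scores of 40.9, 38.8 and 44.1 overlapped those of the 3 inside.

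Next, the spacing of the members in the WT map was examined. The nearer of the 2 neighbouring WT summits lay at a median of 195 bp from a member (quartiles 175 and 290 bp) and at 160 bp from the other nucleosomes (130 and 200 bp). Few members had a crowded side. A neighbour closer than 150 bp was found for 2001 members (2.87%) and for 36.6% of the other nucleosomes. Many stood apart, as both neighbours were more than 300 bp away for 16365 members (23.5%) and for 5.55% of the other nucleosomes. The range between, 150 to 200 bp, held the nearer neighbour of 37061 members (53.2%) and of 41.1% of the other nucleosomes. A neighbour on both sides at this distance was about as frequent in the members (13.1%) as in the other nucleosomes (11.1%), whereas 26.3% of the members and 12.6% of the other nucleosomes had one neighbour at this distance and a gap of more than 300 bp on the other side. The mirror selection had the same layout, with 3.22% crowded, 49.2% with the nearer neighbour at 150 to 200 bp and 24.9% isolated.

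Seen from the distances, the share of best-positioned nucleosomes had 2 separate high ranges. It was 0.0496% where the nearer WT summit lay less than 110 bp away, rose to 8.83% where that distance was at least 180 and less than 190 bp, and dropped to 5.0% at the distances above 220 and up to 250 bp, close to the share in all eligible nucleosomes. At wider gaps it rose again, to 14.2% above 300 and up to 400 bp and to 47.5% (1842 of 3879) above 1000 bp. Fragments of a close neighbour may enter the score of a nucleosome, and the window that the authors' run used for the score is not given in the sources used here. Spacing is thus not independent of how the members were chosen, and the part of such fragments in these shares was not tested.

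**Figure D1:**
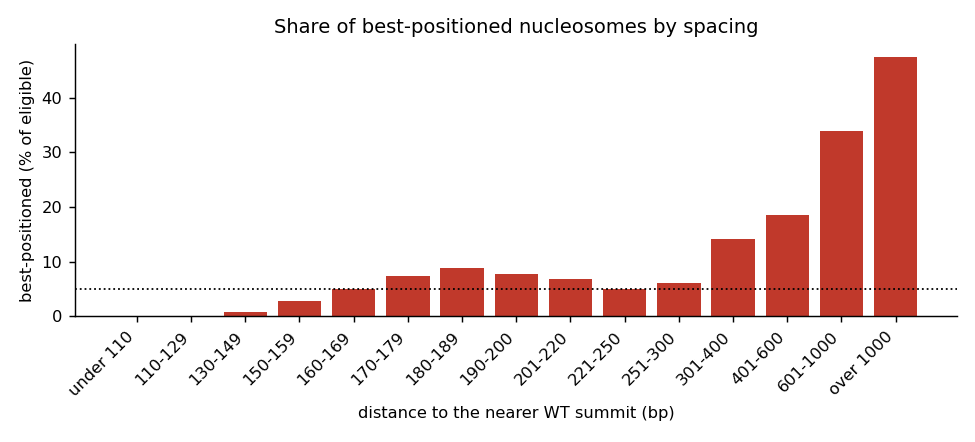
Share of best-positioned WT nucleosomes among all eligible WT nucleosomes (y axis, %) by the distance to the nearer WT summit (x axis, bp, in classes of unequal width). The bars start at 0 and the dotted line marks the overall share of 5%. The share is 0.0496% in the first class, has a peak of 8.83% in the class that starts at 180 bp and reaches 47.5% above 1000 bp.

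The members stood in a phased surrounding (the plot of summits by distance). Around them, WT summits were densest at 185 bp, with 8.38 summits per 1000 bp, and sparsest after that at 265 bp, with 1.07. The second maximum of 5.81 followed at 355 bp and the third of 4.52 at 525 bp, with minima of 1.97 at 445 bp and 2.85 at 625 bp. Each of these maxima thus followed the one before it at 170 bp. Around the other nucleosomes the waves were shallower and longer, with 5.88 at 165 bp, 3.18 at 275 bp, 5.04 at 365 bp and 4.58 at 565 bp. The limit just given for spacing applies to these densities too.

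Waves of similar position were present in the mutant. Around the WT positions of the members, *oschz1-1* summits reached 7.40 per 1000 bp at 175 bp, 5.72 at 355 bp and 4.64 at 535 bp, with minima of 1.22 at 265 bp and 2.12 at 445 bp. The first 3 maxima in the 2 maps thus lay within 10 bp of each other, whereas the fourth and shallowest lay at 695 bp in WT and at 725 bp in *oschz1-1*. The first was lower in *oschz1-1* (7.40 against 8.38), and the second and the third were nearly as high as in WT or higher. Both maps were read around WT summits of nucleosomes chosen in WT, and no densities were computed around the mirror selection. The part of this choice in the lower first maximum was not tested.

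**Figure D2:**
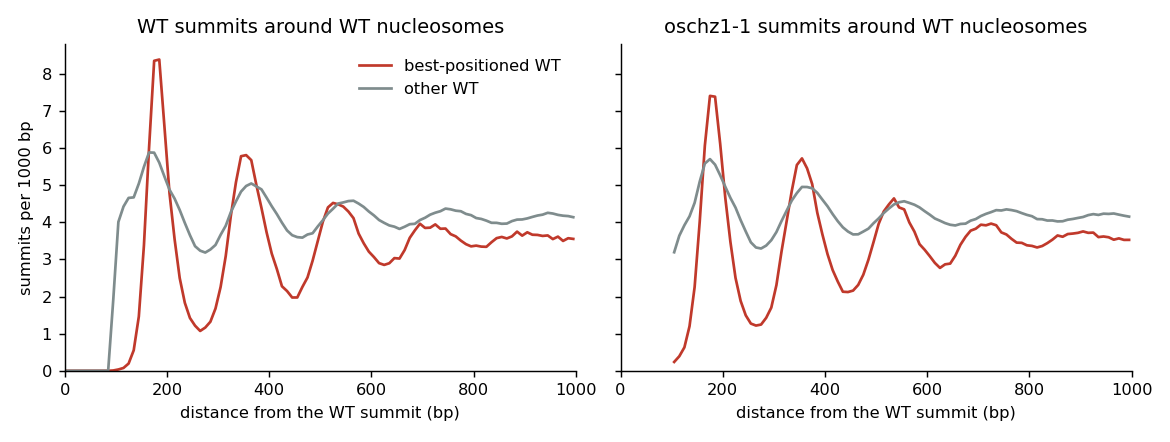
Density of WT summits (left) and *oschz1-1* summits (right) in summits per 1000 bp (y axis) by the distance from the WT summit (x axis, bp, bins of 10 bp, both sides joined). Red lines stand for the best-positioned WT nucleosomes and grey lines for the other nucleosomes. The right panel begins above 100 bp, because the nucleosomes' own *oschz1-1* summits fill the shorter distances. The red line has its first maximum at 185 bp on the left (8.38) and at 175 bp on the right (7.40), and both panels show 3 maxima before 600 bp.

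The members were clustered along the chromosomes. The next WT summit downstream of a member, of any value, was again a member in 32.2% of cases (22415 of 69707), against 3.57% after another nucleosome. This share was 19.5% at the second summit, 14.0% at the third, 8.65% at the fifth, 5.70% at the tenth and 5.39% at the twentieth. The enrichment therefore spanned about 10 nucleosomes, beyond which the share stayed slightly above the overall 5%. In the *oschz1-1* map the share at the next summit was 30.4%. Counted as runs of members consecutive among the eligible summits, 33094 members (47.5%) stood singly and 36614 (52.5%) stood in 14190 runs of at least 2. Runs of at least 5 numbered 739 and held 5.86% of the members.

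**Figure D3:**
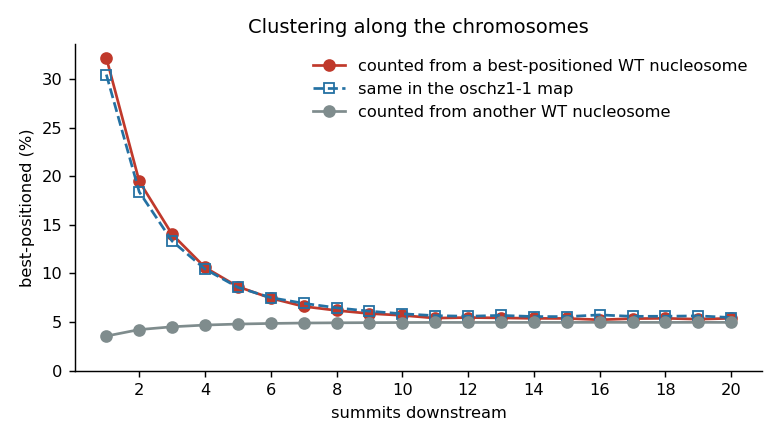
Share of best-positioned nucleosomes (y axis, %) at the first to the twentieth summit downstream (x axis). Red points are counted from best-positioned WT nucleosomes, grey points from the other WT nucleosomes, and open blue squares from best-positioned nucleosomes of the *oschz1-1* map. The red share declines from 32.2% to 5.39%, and the blue share starts at 30.4%.

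The longest run was on chromosome 7 from 14432521 to 14435481, where 13 consecutive eligible summits over 2960 bp were members. The distances between them had a median of 184 bp and ran from 140 to 520 bp. WT values in the run lay between 11.4 and 29.9 and WT fuzziness between 28.4 and 41.5. In *oschz1-1*, 11 of the 13 kept a summit, moved by at most 40 bp in either direction, and 6 were in the mirror selection. The 2 that were lost were neighbours, at 14434461 (11.4 in WT, 7.42 in *oschz1-1*) and at 14434768 (14.7 in WT, 1.73 in *oschz1-1*), while the summit that followed at 14434946 was kept. Elsewhere in the run the value was higher in *oschz1-1*, as at 14435341, with 29.9 in WT and 54.6 in *oschz1-1*. This run thus held both lower and higher values in the mutant.

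Of 3 runs of 10, the 2 of lowest median fuzziness are described. One on chromosome 7, from 9701621 to 9704311, was more widely spaced, with a median distance of 305 bp. Of its members 7 were kept, displaced by 0 to 20 bp, and 6 were in the mirror selection. The 3 that were lost had WT values of 13.7, 10.9 and 12.0, and the kept ones had 11.7 to 37.4, so that the 2 sets overlapped and the lost ones lay at the lower end. On chromosome 5, all 10 members of the other run, from 19696241 to 19698501, were kept. Their displacements ran from −45 to 40 bp, and 7 were in the mirror selection. In none of these 3 runs did the kept members move by one common distance.

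On the scale of 100000 bp, the share of members among eligible summits had a median of 4.86% over 3710 windows with at least 100 eligible summits, and 5% of the windows were below 2.17% and 5% above 8.93%. It was higher in windows with few summits. The fifth of the windows with the fewest (107 to 346) had a median share of 6.38%, and the fifth with the most (415 to 490) one of 3.96%. Isolated members, with both neighbours more than 300 bp away, made up 38.2% of the members in the former and 14.3% in the latter. The 4 windows of highest share lay close together on chromosome 8, led by 6800001 to 6900000 with 41 members of 124 eligible summits (33.1%). The stretch from 6600001 to 7100000 was singled out after its values had been seen. It held 176 members of 824 eligible summits (21.4%), of which 52.3% were isolated, 135 (76.7%) were kept in *oschz1-1* and 84 were in the mirror selection. The lowest share, 1 of 430, was found on chromosome 9 from 13300001 to 13400000. How well reads can be mapped in such windows was not tested, as no genome sequence was used.

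Retention in *oschz1-1*, meaning that the same entry of the map listed a summit in the mutant, was 80.0% over all eligible WT nucleosomes. Among the members 60427 (86.7%) were kept and 9281 (13.3%) were not, against 79.6% kept among the other nucleosomes. The share was higher in the members on 12 of 12 chromosomes, where it ran from 84.4% to 88.7% in the members and from 79.2% to 80.3% in the other nucleosomes. In the mirror selection, 85.2% of the best-positioned *oschz1-1* nucleosomes had a WT summit, against 78.9% of the other nucleosomes of that map. Retention was thus slightly lower when read from the mutant to WT.

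The summit value moved with retention. In the lowest decile of WT values, 56.6% of the members and 63.5% of the other nucleosomes were kept. The members were below the other nucleosomes in the lowest 3 deciles, level with them in the next 2 (76.1% and 79.0% in both sets) and above them in the upper 5, up to 98.9% against 94.3% in the highest decile. In the mirror selection they were higher in 6 of 10 deciles. A higher retention of the sharp nucleosomes was therefore seen at high values and not at low ones. When the lowest 5% of fuzziness was taken within each decile of value instead, 81.3% were kept against 79.9% of the rest.

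**Figure D4:**
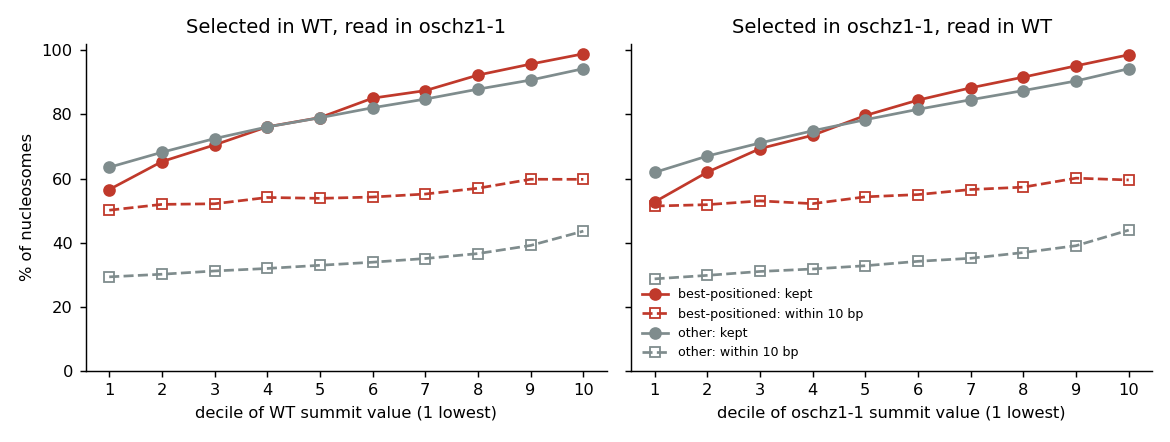
Share of nucleosomes (y axis, %) by decile of summit value in the selecting map (x axis, 1 is the lowest). Filled points give the share kept in the other map, and open squares the share of the kept ones whose summits lay at most 10 bp apart. Red stands for best-positioned and grey for other nucleosomes, selected in WT (left) or in *oschz1-1* (right). The kept shares cross, from 56.6% against 63.5% in the lowest decile to 98.9% against 94.3% in the highest, while the open red squares lie above the grey ones in all 10 deciles of both panels.

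Spacing also went along with retention. In 4 of 5 classes of spacing the members were kept more often than the other nucleosomes. With the nearer neighbour closer than 150 bp, 88.3% of the members and 72.8% of the others were kept. This class held 2.87% of the members and 36.6% of the others, so that the 2 sets differed in spacing. Members whose nearer neighbour lay at 170 to 200 bp were kept in 91.6% of cases, and the isolated members in 77.8%. The other nucleosomes of these 2 classes were kept in 85.2% and 81.3% of cases, so that isolated members were kept less often than isolated nucleosomes of higher fuzziness. The same was seen in the mirror selection, with 74.9% against 78.6%. The isolated class has no upper limit of distance. Members made up 14.2% of the eligible nucleosomes above 300 and up to 400 bp and 47.5% above 1000 bp. Isolated members and other isolated nucleosomes were thus not matched for distance. The median WT value was 22.8 at 170 to 200 bp and 16.3 in the isolated members. Within the members, the sharpest were not the best kept. Of the 1195 with a fuzziness of up to 30, 72.0% were kept, against 87.3% of the 42358 with a fuzziness of more than 38. The former had a median WT value of 18.3 and the latter one of 20.2.

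The 9281 lost members had a median value of 13.7 in WT, against 21.9 in the kept ones, and of 6.96 in *oschz1-1*. Their surrounding differed from that of other lost nucleosomes. The nearest *oschz1-1* summit was at a median of 230 bp from a lost member and at 130 bp from a lost nucleosome of the others, and it was more than 300 bp away for 37.0% and 3.89%, respectively. Of the lost members, 39.1% had been isolated in WT, against 5.10% of the other lost nucleosomes. An *oschz1-1* summit within the length of one nucleosome was found for 8.04% of the lost members and for 60.7% of the other lost nucleosomes. A lost member thus seldom had an *oschz1-1* summit close by. In WT itself, a neighbour closer than 150 bp was listed for 2.87% of all members and for 36.6% of the other nucleosomes. The 8.04% and 60.7% thus cannot be told apart from the spacing in WT. Whether a near summit replaced a lost one was not tested. A value of less than 1 in *oschz1-1* was found in 96 members (0.138%) and in 0.105% of all eligible nucleosomes. In the mirror selection, 231 nucleosomes (0.328%) had a WT value of less than 1, against 0.227% of all that were eligible in *oschz1-1*. Of these 231, 65.8% were on chromosomes 10 and 11, and of the other lost nucleosomes with such a value 65.2%, so that this location was common to both sets.

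The *oschz1-1* summits of the members lay closer to the WT summits than those of the other nucleosomes. The members were chosen for a sharp WT position. How far the summit of a sharp or a fuzzy nucleosome varies between maps of the same genotype is unknown here. Its part in this and the following displacements was not tested. Over all eligible nucleosomes with both summits, 35.9% had them at most 10 bp apart. Among the members this was so for 34398 of 60427 (56.9%, 95% Wilson interval 56.5% to 57.3%, which covers counting alone), and among the other nucleosomes for 34.7%. An identical coordinate was listed for 10115 members (16.7%) and for 11.5% of the other nucleosomes. The median displacement was 10 bp in the members (quartiles 5 and 20 bp, 95th percentile 40 bp) and 20 bp in the other nucleosomes (10 and 45 bp, 95th percentile 70 bp). Summits are mostly listed on a grid of 10 bp, so that a median of 10 bp is 1 step of the map.

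The members lay closer on every chromosome, with 55.9% to 60.2% within 10 bp against 34.0% to 36.8%. They did so in all 10 deciles of summit value, by 16.2 to 22.2 percentage points, and in all 5 classes of spacing, by 18.6 to 22.1. Isolated members (57.2%) and members with the nearer neighbour at 170 to 200 bp (58.7%) were alike in this respect, although they differed in retention. The mirror selection gave 57.0% within 10 bp and a median of 10 bp, but 31593 nucleosomes belong to both selections and have the same displacement in both, so that much of this likeness is fixed by the overlap. Of the 31593, 63.4% lay within 10 bp. The nucleosomes kept in both maps but selected in one alone share no entries, and 49.8% of the 28834 selected in WT alone and 49.9% of the 28401 selected in *oschz1-1* alone lay within 10 bp, with a median of 12 bp in each.

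Shifts of 50 to 90 bp were found in 22.4% of all eligible nucleosomes with both summits. They were rare in the members, with 1901 (3.15%), against 23.5% in the other nucleosomes and 3.36% in the mirror selection. The direction was balanced. Of the displaced members 50.4% had moved towards higher coordinates, and of the shifts of 50 to 90 bp 962 of 1901 (50.6%).

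**Figure D5:**
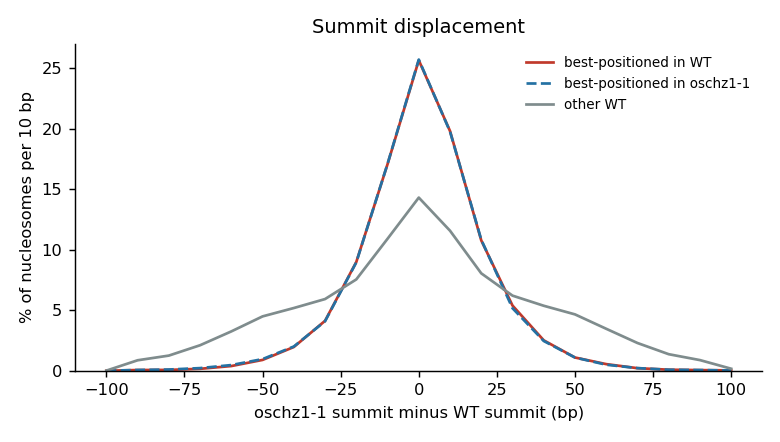
Distribution of the displacement, the *oschz1-1* summit minus the WT summit (x axis, bp), as the share of nucleosomes with both summits in each 10 bp (y axis, %, each bin including its lower limit and not its upper one). The red line stands for the best-positioned WT nucleosomes, the dashed blue line for the best-positioned *oschz1-1* nucleosomes and the grey line for the other WT nucleosomes. The red and blue lines, which share 31593 nucleosomes, are narrow (median absolute displacement 10 bp), and the grey line is broader (20 bp).

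Both properties graded with fuzziness over the whole map. In the second twentieth of WT fuzziness, just above the members, 86.4% were kept, 50.2% of these lay within 10 bp and 7.43% had shifted by 50 to 90 bp. In the twentieth of highest fuzziness, the values were 59.0%, 26.6% and 33.0%. The members are thus the end of a gradient and not a class apart. Nucleosomes of the highest 5% of WT value that were not members were kept more often than the members (95.5%), but fewer of them lay within 10 bp (45.8%).

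Where a member was flanked by a neighbour within 200 bp on one side and by a gap of more than 300 bp on the other, the direction of displacement was examined. Of 14462 such displaced members, 6976 (48.2%) had moved towards the open side, against 56.1% of the other nucleosomes. Among shifts of 50 to 90 bp it was 165 of 409 (40.3%), against 62.4%. The mirror selection gave 49.1% and 42.2%. The members thus did not share the lean towards the open side that the other nucleosomes had.

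Adjacent members were compared as pairs. Of 22415 pairs, 17616 (78.6%) kept both summits in *oschz1-1*, against 62.6% of the pairs of other nucleosomes. For those 150 to 200 bp apart, 8050 of 9600 pairs (83.9%) kept both, against 67.3%. Their median distance was 180 bp in both maps, the median change of a distance was 15 bp, against 30 bp in pairs of other nucleosomes, and 42.8% of the distances changed by at most 10 bp, against 25.1%. Both summits of such a pair moved in the same direction in 52.0% of the pairs in which both were displaced, against 57.6% of the other pairs. Adjacent members at this distance thus changed their spacing less than other pairs and moved together less often. Single members were also kept more often than other nucleosomes (86.7% against 79.6%), so that the shares of kept pairs are not a separate result. The pairs were not matched for WT value.

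The sharpness itself was partly shared by the maps. Of the members, 31593 were also in the mirror selection, which is 45.3% of the members and 44.9% of the mirror selection, against 2.14% of the other nucleosomes. The share was 43.4% to 47.3% over the chromosomes. It was 67.0% in members with a fuzziness of up to 30 and 34.1% in those above 38, and 29.2% in the lowest and 59.5% in the highest decile of WT value. The 31593 had a median fuzziness of 37.6 in WT and 38.0 in *oschz1-1*. The 28834 members that kept a summit without being selected in *oschz1-1* had 40.0 in WT and 46.6 in *oschz1-1*, and the corresponding 28401 nucleosomes of the mirror selection had 40.4 in *oschz1-1* and 46.3 in WT. Across the 1114265 nucleosomes eligible in both maps, the scores correlated with a Pearson coefficient of 0.57 and a Spearman coefficient of 0.47, a description across nucleosomes that share libraries and neighbours.

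Fuzziness was higher in *oschz1-1* at 46154 of 60427 members (76.4%), with a median difference of 3.51 (chromosomes 3.33 to 3.74). In the mirror selection it was higher in WT at 71.1%, with a median difference of 2.82 (2.57 to 3.07). A rise was thus seen in both directions of selection, larger in the one from WT. The chromosomes share the merged libraries, so that their ranges do not give the spread between libraries. Whether the remaining difference exceeds that between replicate libraries was not tested, as the values had been merged. When all were pooled, the median difference was −0.09 in the other nucleosomes and −0.24 in those of the *oschz1-1* map read in WT. The classes next to the members, however, rose about as much as the members. The median score of the kept nucleosomes went from 43.8 in WT to 47.3 in *oschz1-1* in the second twentieth of WT fuzziness and from 46.2 to 49.5 in the third, against 39.0 to 41.9 in the members. The rise was thus not particular to the members.

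A summit value at least 2-fold lower in *oschz1-1* (on log2 values after a pseudocount of 1 was added) was found in 9.43% of all eligible nucleosomes and in 6408 members (9.19%). A value at least 2-fold higher was found in 0.908% of all eligible nucleosomes and in 421 members (0.604%). The minimum of 10 was set in WT alone, and most of the lower values were at lost summits. Where both maps had a summit, 1762 members (2.92%) were at least 2-fold lower and 421 (0.697%) at least 2-fold higher, against 1.23% and 1.16% of the other nucleosomes. In the mirror selection these shares, read as WT against *oschz1-1*, were 2.07% and 1.09%. The median log2 ratio of the members was −0.20, against −0.12 in the other nucleosomes and −0.16 in the mirror selection. At like WT values, this difference from the other nucleosomes changed direction. In the lowest decile of WT value the median was −0.005 in the members and 0.16 in the other nucleosomes. In the highest decile it was −0.31 in the members and −0.41 in the other nucleosomes. When the lowest 5% of fuzziness was taken within each decile, the median was −0.13 in both sets. That value pools deciles with differences in opposite directions. The 4 twentieths of fuzziness next above the members had medians of −0.20 to −0.22, so that the value was not particular to the members.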

How the data were processed

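MNase-seq libraries of WT and *oschz1-1* were analysed from 1 table of 17 columns. The authors aligned read pairs to build MSU7 with Bowtie2 (2.3.4.1), filtered them by mapping quality and for duplicates with Samtools, and compared the genotypes with DANPOS, whose options are not given in the sources used here. The summit values are a signal that the authors deposited after scaling and after merging the 2 libraries of each genotype. Fuzziness is a score deposited by the authors. The control columns were taken as WT, as the study compares the mutant with WT. Of the 17 columns, 6 were used. The authors' comparisons (log2 ratios, p-values and FDR of summit, point and fuzziness differences) were not used.

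The members and lists were chosen with earlier results of these data known. Named are the 6 members of lowest fuzziness, 3 of the longest runs of consecutive members (ties by lower median fuzziness), and the 3 nucleosomes on each side of the threshold. Summits were taken as kept where the same entry listed one in both maps. Shifts are distances of 50 to 90 bp. Ratios are log2 values after a pseudocount of 1 was added. Wilson intervals of 95% cover counting alone. The alternatives were other limits on fuzziness and value, other definitions of a kept or identical position, other pseudocounts and, chosen after the data had been seen, the leaving out of chromosomes 10 and 11 and a restriction to summits on the 10 bp grid. In 100000 simulated nucleosomes, 8 of 8 quantities put in were recovered. Displacements were fixed there and fuzziness was the same in both maps, so that the computation alone was checked. The tools were pandas 2.3.3, numpy 2.4.6, scipy 1.17.1 and matplotlib 3.10.9 under Python 3.11.15. Neither the sequence nor an annotation of MSU7 was used, and sequences, GC content and genes were not analysed here.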

Additional observations from a re-analysis of the deposited data

How the results depend on the processing

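Of 74 values recomputed for the members under alternatives, 29 stayed within the interval of the value reported, and 73 kept the direction of the members against the other nucleosomes. The exception was the median log2 ratio at a minimum summit value of 20, which was −0.26 in the members and −0.32 in the other nucleosomes. None reversed in sign. Values are given in the order kept share, share within 10 bp, share in both maps, median fuzziness difference, median log2 ratio, median distance of the nearer neighbour and share of next summits that are members, for those that moved. With the lowest 1% of fuzziness they were 84.1%, 57.5%, 36.0%, −0.21 (log2 ratio), 205 bp and 17.4%. With the lowest 10% they were 53.6% (within 10 bp), 46.0%, 3.57, 192 bp and 38.5%. With a minimum value of 20 they were 97.4%, 59.5%, 42.6%, 3.19, −0.26, 190 bp and 19.0%. Without the highest 1% of values they were 85.5% (kept), 40.1% (both maps), 3.65, −0.18, 198 bp and 29.7%. With the lowest 5% taken within each decile of value they were 81.3%, 53.5%, 37.4%, 3.73, −0.13, 200 bp and 30.8%. On the 10 bp grid alone, an alternative chosen after the data had been seen, they were 89.2%, 58.6%, 3.37 (fuzziness), −0.21 and 30.9%. With any *oschz1-1* summit within 20 bp or 73 bp counted as kept, retention was 69.0% and 86.4%. Identical coordinates were found in 16.7% and summits within 20 bp in 79.6%. The median displacement to the nearest *oschz1-1* summit anywhere was 12 bp. The log2 ratio was −0.21 with a pseudocount of 0.1 and −0.12 where both maps had a summit. The share in both maps was 39.1% with mirror summits within 20 bp, and the share of next summits was 34.0% within 300 bp. A minimum value of 5 and the leaving out of chromosomes 10 and 11, the latter chosen after the data had been seen, moved none. The causes were not tested. No paired analysis was possible because the libraries had been merged into 1 value per genotype, and for the same reason no library could be left out. The read depth is unknown, so that a summit lost in one map cannot be told apart from one that fell short of being called.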

Other observations

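On the unanchored sequences of the build, which were left out above, 67 of 1330 eligible nucleosomes (5.04%) had a WT fuzziness below the threshold found on the chromosomes, and 55 of these (82.1%) kept a summit in *oschz1-1*.

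Summits of the best-positioned nucleosomes were listed off the 10 bp grid more often than others, at 30.5% against 12.5%. Those off the grid had a lower median WT value (17.6 against 22.0 on the grid), were kept less often (80.9% against 89.2%) and lay within 10 bp of their WT position less often (52.8% against 58.6%). The other nucleosomes off the grid differed from those on it in the same directions. Their median WT value was 14.6 against 16.7, 76.7% against 80.1% were kept, and 28.5% against 35.5% lay within 10 bp.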
